A study of Mus musculus with 13 samples.

Results

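Hearts that had gone through ischaemia and reperfusion (IR, a temporary block of the blood supply to heart muscle followed by its return) together with a control virus were compared with sham-operated hearts. The members were the 3 libraries titled as IR with virus control and the 3 titled as Sham, 6 of the 13 libraries of the study, chosen by title alone. All were male wild-type C57Bl6 mice, with hearts taken at 17 weeks of age after surgery at 12 weeks. The IR virus hearts (n = 3) had IR surgery and an injection of the control virus, whose kind, dose and route the labels do not give, and the Sham hearts (n = 3) had sham surgery and no injection, so the injury and the virus cannot be told apart in this comparison. A further group, IR without any injection (n = 3, same strain, sex, age and age at surgery), is given beside them, and the 4 hearts that received an editing system are used only in 1 alternative fit. RNA came from whole hearts, so levels average over all cell types and regions, and fewer cells of a type cannot be told apart from less RNA per cell. The labels number the replicates without saying that each is a separate animal, so the p-values measure the spread between these samples.

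Heart muscle that is overloaded or injured turns on genes of the fetal heart and of skeletal muscle, among them those for natriuretic peptides, the slow beta myosin heavy chain and skeletal alpha-actin. Resident fibroblasts around a lesion become activated, secrete collagens and other matrix proteins, and later turn into scar fibroblasts that make genes also used in cartilage and tendon. Both processes are known from the weeks after an infarct in mice.

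The promoters of 4 muscle genes on which the results turn are shown first, as the 250 bases before the RefSeq start site in GRCm38.p6, 5′ to 3′ on the gene's strand. Capitals mark 2 motifs, the MCAT element (CATTCC or its reverse complement GGAATG), which TEAD factors are known to bind, and the TATA box (TATAAA). The windows of Acta1 and Ankrd1 lie on the minus strand at chr8:123894776-123895025 and chr19:36119845-36120094, Myh7 on the minus strand at chr14:54994627-54994876, and Nppa on the plus strand at chr4:148000472-148000721.
Acta1: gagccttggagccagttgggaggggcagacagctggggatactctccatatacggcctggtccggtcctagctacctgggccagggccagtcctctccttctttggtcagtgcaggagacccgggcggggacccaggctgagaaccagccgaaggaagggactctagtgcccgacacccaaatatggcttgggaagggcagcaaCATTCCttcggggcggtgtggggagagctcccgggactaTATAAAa
Ankrd1: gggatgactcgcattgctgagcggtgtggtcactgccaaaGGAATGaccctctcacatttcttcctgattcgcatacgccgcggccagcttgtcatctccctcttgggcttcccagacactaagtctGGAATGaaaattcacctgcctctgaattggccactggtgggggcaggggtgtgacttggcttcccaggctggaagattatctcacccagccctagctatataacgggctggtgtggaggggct
Myh7: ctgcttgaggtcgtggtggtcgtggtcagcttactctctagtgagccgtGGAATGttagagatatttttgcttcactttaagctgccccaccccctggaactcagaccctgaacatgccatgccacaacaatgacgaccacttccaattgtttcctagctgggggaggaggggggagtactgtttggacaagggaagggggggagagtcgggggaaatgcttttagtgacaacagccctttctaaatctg
Nppa: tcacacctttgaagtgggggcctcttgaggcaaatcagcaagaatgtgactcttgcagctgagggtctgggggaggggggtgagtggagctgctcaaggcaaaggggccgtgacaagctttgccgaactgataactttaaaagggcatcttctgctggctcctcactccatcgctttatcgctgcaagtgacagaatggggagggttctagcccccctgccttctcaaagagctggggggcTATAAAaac
Positions count back from the start site to the first letter of a motif. The Acta1 window held an MCAT element at position -46 and a TATA box at -7. The Ankrd1 window held MCAT elements at -210 and -123, and the Myh7 window 1 at -201. A second RefSeq start of Myh7 had a window (chr14:54994550-54994799) that overlapped the first, began after these letters and held none. The Nppa window held a TATA box at -9 and no MCAT letters.

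The 6 libraries held 22784417 to 27265276 counts. Transcripts of the mitochondrial genome took 33.2% ± 2.17 of them in IR virus (SD, n = 3) and 36.3% ± 1.93 in Sham (n = 3). Summed over 6 cardiomyocyte markers, levels overlapped between the groups, at 37920 to 41100 CPM in IR virus and 35750 to 44140 CPM in Sham, where CPM is the TMM-scaled count per 1000000 counts. Of the 6, Myh6 and Actc1 overlapped and the other 4 were lower in every IR virus heart than in every Sham heart without passing the test described below: Tnni3 (2082 against 2576 CPM as group means, edgeR adjusted p = 0.0548), Tnnt2 (5722 against 6644 CPM, 0.241), Ryr2 (2067 against 2311 CPM, 0.309) and Myl2 (5987 against 6640 CPM, 0.366). All 6 markers were at high levels in all 6 hearts, as in heart muscle, and the part of the lower 4 in the results was not tested. Sham replicate 3 stood apart in atrial markers and Sham replicate 1 in blood cell markers, which is taken up beside the genes concerned. The target of the editing system in the wider study, Camk2d, a kinase that calcium and calmodulin switch on, was at 216, 195 and 230 CPM in IR virus and 197, 271 and 278 CPM in Sham (log2 fold change -0.22 ± 0.13 SE, edgeR adjusted p = 0.43).

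Of 15061 genes tested, 203 passed edgeR's quasi-likelihood test at a Benjamini-Hochberg adjusted p under 0.05 (1.35% of those tested), 158 of them higher in IR virus (1.05%) and 45 lower (0.299%). All 203 separated the hearts completely, with every IR virus heart on one side of every Sham heart. Over all genes tested, 1565 (10.4%) had all 3 IR virus hearts above all 3 Sham hearts and 1681 (11.2%) had them below. The rises were larger than the falls: 80 genes were at least 2-fold higher and 25 at least 4-fold, against 6 and 2 lower. The median log2 fold change over all genes tested was -0.00032, and 49.9% of them had a positive fold change. In what follows, "rose" and "fell" are used only of genes that passed this test, and fold changes are log2 with their standard error (SE).

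The number of calls depended on single libraries. Without IR virus replicate 1, 18 genes passed, without IR virus replicate 3, 62, and without Sham replicate 2, 133. Those 18 were the genes that passed in each of the 6 fits that left out 1 library, among them Ankrd1, Bmp10, Cilp, Comp, Edn3, Itgbl1, Ltbp2, Mybpc2, Myh7, Nox4, Nppa, Ptn, Sfrp2, Thbs4, Timp1 and Wisp2, which rose, and Gm36827, which fell. Another 13 of the 203 genes passed in none of these 6 fits, Cthrc1, Pam and Glt28d2 among them. A further 36 passed in only 1, among them Ankrd23, Asb15, Cd44, Kcnj3, Ltbp3, Meox1, Mmp2, Mybpc3, Pfkfb1, Sparc and Tgfb2. When the spread was estimated from all 13 libraries of the study, 2 genes passed, Thbs4 (higher) and Ano10 (lower). The sign of all 203 differences was the same in each of these fits. Since all 203 separated the hearts completely, a change of sign was hardly possible, so this is no support.

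**Figure D1:**
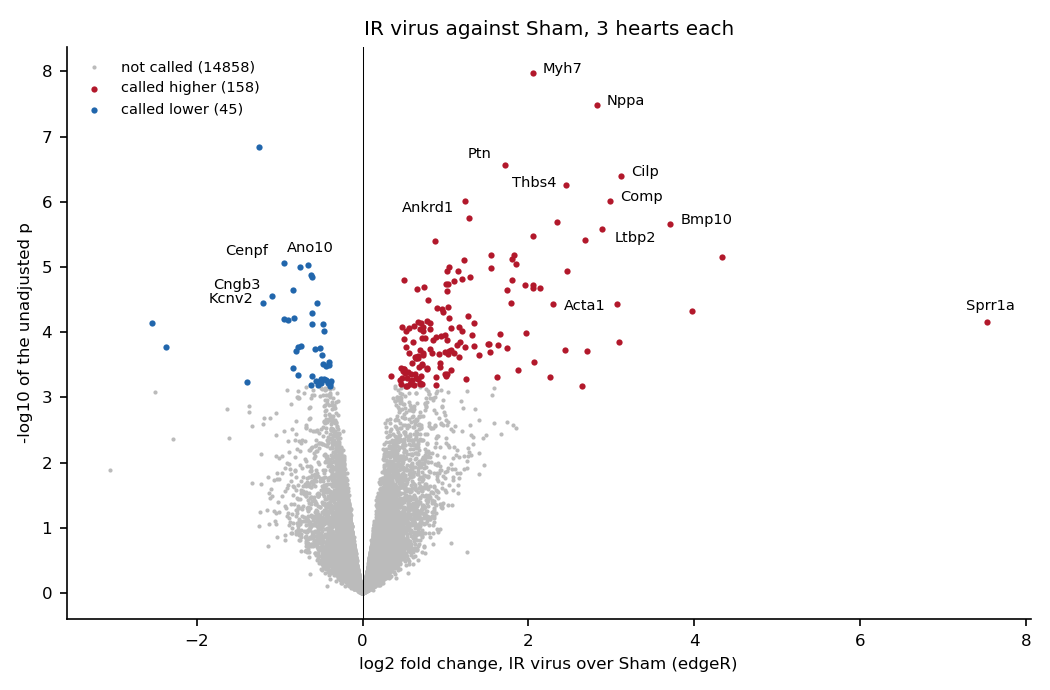
Each dot is 1 of the 15061 genes tested, with the log2 fold change of IR virus over Sham on the horizontal axis and -log10 of the unadjusted edgeR p on the vertical axis (3 hearts a group). The 158 genes called higher (red) reach further from 0 than the 45 called lower (blue); the position of Sprr1a, which had no count in any Sham heart, depends on the prior count of the fit.

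Stress genes of heart muscle rose together with the fetal myosin. Of 26 tested genes of the heart muscle stress list, 11 rose and none fell, 24 had a positive fold change, and their median log2 fold change was 0.53. Nppa, which encodes atrial natriuretic peptide, was at 151, 144 and 151 CPM in IR virus replicates 1 to 3 and 23.4, 26.2 and 13.2 CPM in Sham replicates 1 to 3. The IR virus hearts lay close together and far above every Sham heart (2.82 ± 0.20, edgeR adjusted p = 0.000244). Myh7, the beta myosin heavy chain (chr14:54970684-54994626 in mm10), was at 813, 641 and 716 CPM against 200, 181 and 143 CPM, again with no overlap (2.05 ± 0.13, edgeR adjusted p = 0.00016). Its adult counterpart Myh6 was at 16644, 17730 and 15823 CPM in IR virus and 17013, 18601 and 12614 CPM in Sham, with overlapping groups (0.06 ± 0.12, adjusted p = 0.852). Myh6 and Myh7, like the actins, are close in sequence, so a part of their reads could be assigned to the wrong gene. Without IR virus replicate 1 the list had 4 calls, and without IR virus replicate 3 it had 7.

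Acta1, skeletal alpha-actin, whose promoter is printed above, was at 409, 313 and 314 CPM in IR virus and at 45, 121 and 43.6 CPM in Sham. Sham replicate 2 was the highest of the Sham hearts and still below every IR virus heart (2.30 ± 0.34, edgeR adjusted p = 0.0103). Ankrd1, a stretch-responsive protein of the sarcomere and nucleus, was at 2355, 1906 and 2630 CPM against 773, 1029 and 1031 CPM (1.28 ± 0.14, edgeR adjusted p = 0.00295). Smaller rises were measured for Xirp2 (0.51 ± 0.086) and Nrap (0.48 ± 0.078), which are parts of the intercalated disc and of growing myofibrils, for Synpo2l (0.66 ± 0.14) and for Ankrd23 (0.88 ± 0.19). Uchl1, a deubiquitinase, rose by 1.10 ± 0.15, and Mybpc2, the fast skeletal isoform of myosin-binding protein C, by 0.87 ± 0.10. Nppb, which encodes brain natriuretic peptide, was at 158, 110 and 155 CPM in IR virus and 22.4, 115 and 80.3 CPM in Sham: the Sham hearts were spread widely, the groups overlapped, and the test was not passed (0.96 ± 0.42, adjusted p = 0.301).

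Sprr1a, a small proline-rich protein known to be induced in stressed cardiomyocytes, had 21, 13 and 36 counts in the IR virus libraries and 0 in each Sham library. Set against an assumed floor of 3 counts over the Sham group, its summed counts were 22.6-fold higher, a value that leaves out the spread between hearts. It passed the low-count filter through the IR virus hearts alone, so it had to differ. Without IR virus replicate 1 it did not pass the test. Sprr1a lies below the mean level of 1 CPM that the naming rule asks for and was picked after its values were seen.

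Most genes of adult muscle function did not pass, nor did most of all genes tested, of which 1.35% were called. Of 19 tested adult contractile genes 2 rose (10.5%) and none fell, and the list median was 0.03. They were Myom2, an M-band protein (0.50 ± 0.067, adjusted p = 0.00683), and Mybpc3, cardiac myosin-binding protein C (0.46 ± 0.094, adjusted p = 0.0449). Of the 6 fits that left out 1 library, Myom2 passed in 5 and Mybpc3 in only 1. Myom2 was at 1917, 1969 and 1865 CPM in IR virus and 1407, 1312 and 1343 CPM in Sham, a small shift with tight groups. Of 34 calcium handling and beta-adrenergic genes none passed (median -0.03). Pln, the inhibitor of the calcium pump, had the smallest p of that list, at 1951, 2045 and 2376 CPM in IR virus and 2546, 2668 and 3102 CPM in Sham (-0.38 ± 0.098, edgeR adjusted p = 0.0966).

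Counting motif letters over the promoters, the MCAT element stood in 29 of 133 windows of genes that rose (21.8%), in 1 of 41 windows of genes that fell (2.44%) and in 4153 of 32851 windows of all genes (12.6%). Among the stress genes that rose it stood in 5 of 13 windows (38.5%). The TATA box stood in 17 of the 133 windows (12.8%) and in 12.4% of all windows. In the 17 windows of collagen and fibroblast genes that rose, the TATA box stood in 6 (35.3%) and the MCAT element in 3 (17.6%). The TATA letters lay at -26 in Postn, but at -117 in Col3a1, -148 in Igfbp6 and -211 in Spp1. In Tnc the same letters were counted in overlapping windows, at -126 and -205. Letters were searched on both strands, and 140 of the 203 genes matched the RefSeq table. A gene with more than 1 start site has more than 1 window, and such windows can overlap, as for Myh7. E-box (CACGTG) and AP-1 (TGACTCA) letters stood in 9.02% and 3.76% of the windows of genes that rose and in 6.02% and 4.46% of all windows. These shares describe letters in a window and say nothing of which factor is bound.

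**Figure D2:**
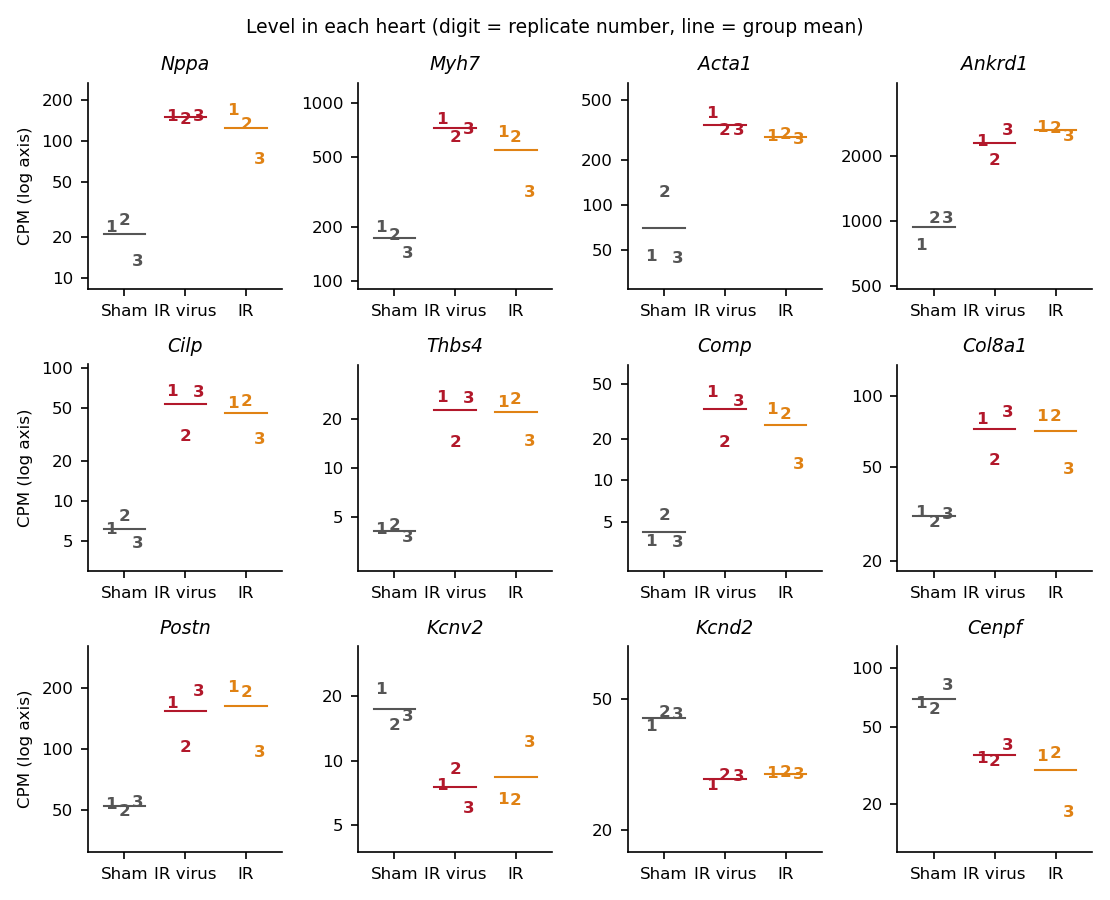
Level of 12 genes in each heart in CPM on a log axis; digits are replicate numbers and lines are group means of the 3 hearts. The IR virus hearts lie above all Sham hearts for the first 9 genes and below them for Kcnv2, Kcnd2 and Cenpf; IR hearts without virus are drawn in orange.

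Matrix genes of activated fibroblasts had the highest share of calls of the 45 gene lists. Of 31 tested genes of the activated fibroblast list, most of which encode secreted proteins, 17 rose (54.8%) and none fell, with a median log2 fold change of 0.95. Cilp, a matrix protein of cartilage that also marks scar fibroblasts, was at 66.4, 30.6 and 65.1 CPM in IR virus and 6.12, 7.68 and 4.80 CPM in Sham. IR virus replicate 2 had less than the other IR virus hearts and still lay far above every Sham heart (3.12 ± 0.28, edgeR adjusted p = 0.00123). Comp, cartilage oligomeric matrix protein, was at 43.5, 18.9 and 37.6 CPM against 3.58, 5.54 and 3.53 CPM (2.98 ± 0.30, edgeR adjusted p = 0.00185). Thbs4, a thrombospondin of the same family as Comp, was at 27.0, 14.2 and 26.5 CPM against 4.18, 4.44 and 3.72 CPM (2.45 ± 0.23, edgeR adjusted p = 0.0014). In all 3 genes replicate 2 was the lowest IR virus heart and the groups did not overlap.

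Postn, periostin, the usual marker of the activated fibroblast, was at 167, 101 and 191 CPM in IR virus and 53.4, 49.3 and 54.3 CPM in Sham (1.55 ± 0.19, edgeR adjusted p = 0.00588). Ptn, the growth factor pleiotrophin, was at 8.31, 8.16 and 9.43 CPM against 2.61, 2.30 and 2.96 CPM, with both groups tight (1.72 ± 0.15, edgeR adjusted p = 0.00101). Other members that rose were Wisp2 (2.06 ± 0.23) and Ctgf (1.04 ± 0.13), both of the CCN family, the adhesion proteins Fn1 (0.88 ± 0.18) and Tnc (1.35 ± 0.24), Spp1, osteopontin (2.44 ± 0.44), Cthrc1 (1.87 ± 0.36), Sparc (0.48 ± 0.096), Igfbp6 (1.07 ± 0.17) and the transcription factor Meox1 (0.94 ± 0.18). The CCN members Cyr61 (0.52 ± 0.11, adjusted p = 0.0571), Nov (0.05 ± 0.24, adjusted p = 0.935) and Wisp1 (-0.14 ± 0.21, adjusted p = 0.783) did not pass, nor did Fap (0.03 ± 0.13, adjusted p = 0.94). Without IR virus replicate 1, 6 members of the list passed, without IR virus replicate 3, 9, and without Sham replicate 3, 11. Cthrc1 passed in none of the 6 fits that left out 1 library, and Sparc and Meox1 each passed in 1.

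Among collagens, fibril-forming and network chains rose. Of the 42 chains listed, 33 were tested, 10 rose and none fell, 29 had a positive fold change, and the median was 0.65. The main scar collagens Col1a1 (150, 78.2 and 113 CPM in IR virus against 38.8, 56.0 and 39.3 CPM in Sham) and Col3a1 (518, 279 and 489 CPM against 165, 216 and 217 CPM) rose by 1.35 ± 0.21 and 1.11 ± 0.20 (edgeR adjusted p = 0.015 and 0.0251). For both, IR virus replicate 2 came close to the highest Sham heart without reaching into the Sham range. Both chains of the network-forming type VIII collagen rose as well. Col8a1 was at 79.5, 53 and 84.7 CPM against 32.1, 29.1 and 31.6 CPM (1.23 ± 0.15, edgeR adjusted p = 0.00596), and Col8a2 rose by 2.46 ± 0.32 (edgeR adjusted p = 0.00603).

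Chains that sit on the surface of collagen fibrils also rose, Col12a1 by 2.06 ± 0.29, Col14a1 by 1.29 ± 0.17 and Col16a1 by 1.02 ± 0.17, as did Col1a2 (1.03 ± 0.15), Col5a2 (0.92 ± 0.17) and the basement membrane chain Col4a3 (0.66 ± 0.12). The basement membrane chain Col4a1 (0.59 ± 0.14, adjusted p = 0.069) and the microfibrillar Col6a3 (0.81 ± 0.20, adjusted p = 0.0948) did not pass. The 9 chains that were not tested, such as Col9a1 and Col10a1, fell under the low-count filter. A gene can pass that filter through the hearts of 1 group alone, so a member that did so had to differ. No collagen chain passed without IR virus replicate 1, and 4 passed without IR virus replicate 3.

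Enzymes that crosslink and trim collagen rose in part. Of 28 tested, 4 rose and none fell (median 0.25): the lysyl oxidases Lox (1.24 ± 0.22), Loxl1 (1.14 ± 0.20) and Loxl3 (1.16 ± 0.19), which crosslink collagen and elastin, and Adamts2, which cuts the amino-terminal propeptide from procollagen (0.95 ± 0.14, edgeR adjusted p = 0.0117). Adamts2 was at 35.7, 23.1 and 31.5 CPM in IR virus and 16.1, 15.7 and 14.9 CPM in Sham, without overlap. The prolyl and lysyl hydroxylases of the list did not pass. None of the 4 passed without IR virus replicate 1 or without IR virus replicate 3.

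Elastic fibre and microfibril genes gave 6 rises among 19 tested and no fall (median 0.71). Ltbp2, which binds fibrillin microfibrils, was at 28.9, 13.4 and 21.6 CPM in IR virus and 3.73, 3.24 and 1.51 CPM in Sham (2.89 ± 0.32, edgeR adjusted p = 0.00328). The other rises were Mfap4 (1.96 ± 0.27), Mfap5 (1.03 ± 0.19), Fbln1 (1.0 ± 0.17), Ltbp3 (0.71 ± 0.15) and Fbln5 (0.53 ± 0.087). Elastin itself, Eln, overlapped between the groups at 36.9, 12.6 and 29.0 CPM against 13.9, 16.3 and 13 CPM (0.87 ± 0.30, adjusted p = 0.199). Without IR virus replicate 1 the list had 1 call, without IR virus replicate 3 it had 2 and without Sham replicate 2 it had 3.

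Of 13 tested small leucine-rich proteoglycans, which coat collagen fibrils, all 13 had a positive fold change (median 0.50) and 2 rose. Bgn, biglycan, was at 322, 222 and 281 CPM in IR virus and 143, 127 and 102 CPM in Sham (1.15 ± 0.15, edgeR adjusted p = 0.00603), and Fmod, fibromodulin, rose by 1.75 ± 0.31 (edgeR adjusted p = 0.0235). Decorin (Dcn) was at 634, 603 and 706 CPM against 547, 516 and 558 CPM, separated but not past the test (0.26 ± 0.080, adjusted p = 0.159). Of 30 proteases of the matrix and their inhibitors, 3 rose (median 0.29): the inhibitor Timp1 (2.35 ± 0.25), Adamtsl2, a microfibril-binding protein without protease activity (1.55 ± 0.20), and the gelatinase Mmp2 (0.62 ± 0.13).

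Of 30 integrin and adhesion genes tested 2 rose (median 0.23), the hyaluronan receptor Cd44 (0.52 ± 0.10, adjusted p = 0.0397) and Itgbl1, a secreted protein related to beta integrins. Itgbl1 was at 36.1, 29.5 and 35.2 CPM in IR virus and 16.5, 12.5 and 13.8 CPM in Sham (1.23 ± 0.12, edgeR adjusted p = 0.00185). The contractile genes of smooth muscle and myofibroblasts gave no call among 23 tested (median -0.05). Acta2, smooth muscle alpha-actin, the usual mark of the myofibroblast, was at 49.6, 44.1 and 42.9 CPM in IR virus and 40.2, 70.5 and 45.8 CPM in Sham (-0.20 ± 0.17, adjusted p = 0.615). The sum of 6 cartilage or valve markers was 74.3, 32.7 and 61.5 CPM in IR virus and 13.1, 15.4 and 11.3 CPM in Sham, and most of it was Comp and Fmod, which are in the lists above. Of the others, Sox9 was separated (0.68) without passing, Chad and Acan overlapped, and Col2a1, which defines cartilage, was near 0 in all 6 hearts. Their part in the result was not tested.

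**Figure D3:**
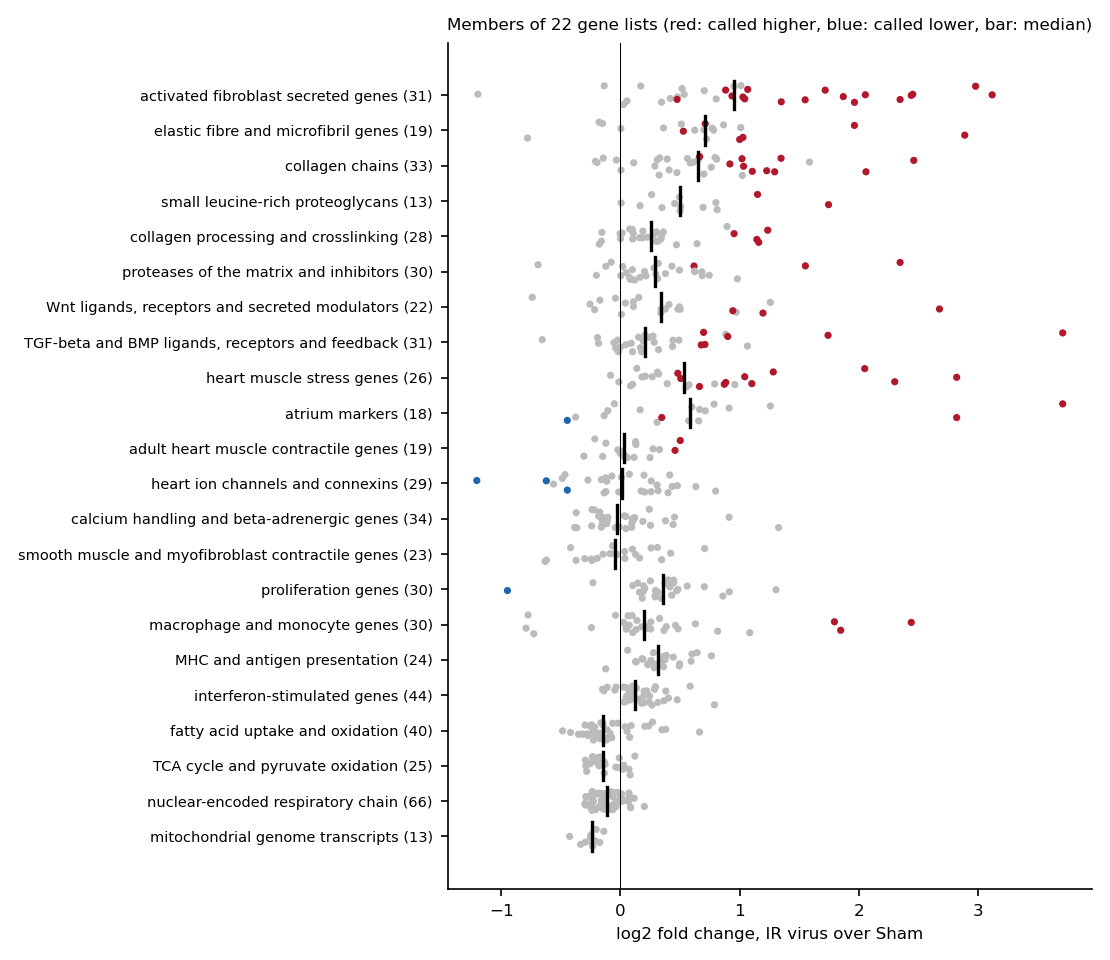
Each dot is a tested member of 1 of 22 gene lists, placed by its log2 fold change of IR virus over Sham; red dots rose, blue dots fell, grey dots did not pass, and the black bar is the median. Numbers after the names count the tested members. Among the 22 lists drawn, the fibroblast, elastic fibre and collagen lists have the highest medians (0.95, 0.71 and 0.65) and the mitochondrial genome the lowest (-0.24). Of lists not drawn, B and plasma cell genes had a median of 0.75 over 6 tested genes. The T cell and neutrophil lists had medians of -0.37 and -0.36 over 3 and 7 tested genes.

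Signals that act on fibroblasts and muscle rose in part. Of 31 tested genes of TGF-beta and BMP signalling, 6 rose and none fell (median 0.21). Bmp10, a BMP made mainly by the right atrium, was at 3.32, 5.76 and 3.28 CPM in IR virus and 0.112, 0.512 and 0.329 CPM in Sham (3.71 ± 0.40, edgeR adjusted p = 0.003). The ligands Tgfb3 (0.90 ± 0.13) and Tgfb2 (0.71 ± 0.14) rose, and Tgfb1 (0.19) did not pass, like the receptors tested. Gdf6, another BMP family ligand (1.74 ± 0.24), Fstl1, a secreted follistatin-like protein (0.70 ± 0.15), and Pmepa1, a TGF-beta target that feeds back on the pathway (0.68 ± 0.13), completed the list. Without IR virus replicate 1 the list had 1 call, without IR virus replicate 3 it had 2, and without Sham replicate 2 or Sham replicate 3 it had 3.

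Of 22 tested Wnt genes, 3 rose and none fell (median 0.34), and all 3 are secreted Wnt antagonists: Sfrp2 (2.68 ± 0.31), Frzb (1.20 ± 0.20) and Sfrp1 (0.94 ± 0.16). Sfrp2 was at 16, 6.67 and 12.8 CPM in IR virus and 1.68, 2.30 and 1.55 CPM in Sham, with replicate 2 again the lowest IR virus heart (edgeR adjusted p = 0.00398). In the natriuretic, endothelin and angiotensin list 2 of 21 rose, Nppa and Edn3, an endothelin peptide (4.21, 5.59 and 4.82 CPM against 0.971, 1.45 and 1.74 CPM, 1.83 ± 0.22, edgeR adjusted p = 0.00588). For Edn3, as for Bmp10, replicate 2 was the highest IR virus heart. The antioxidant list gave 2 rises among 24 tested, Nox4, an oxidase that makes hydrogen peroxide (6.05, 5.93 and 8.48 CPM against 2.54, 1.71 and 1.55 CPM, 1.80 ± 0.22, edgeR adjusted p = 0.00593), and Gpx3, a secreted glutathione peroxidase (0.52 ± 0.092). Dio2, the enzyme that activates thyroid hormone, rose by 2.14 ± 0.30 (edgeR adjusted p = 0.00741).

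Atrial markers call for care, since 1 Sham heart stood apart in them. Of 18 tested, 3 rose and 1 fell (median 0.59). The atrial proteins Myl4 and Myl7 overlapped: Myl4 was at 28.5, 37.2 and 23.7 CPM in IR virus and 27.3, 25.5 and 3.39 CPM in Sham, and Myl7 at 21.9, 31.3 and 24.5 CPM against 23.3, 22.1 and 1.55 CPM. Sln, the atrial regulator of the calcium pump, was at 4.29, 6.88 and 3.61 CPM against 4.29, 3.03 and 0.329 CPM. Sham replicate 3 was thus low in all 3 markers, and in these 3 Sham replicates 1 and 2 lay near the IR virus hearts. Dkk3, a further atrial marker, was at 31.8, 25.9 and 31.4 CPM against 16.7, 14.2 and 5.97 CPM, separated without passing. Over all 18 tested members, mean log2 levels relative to the Sham mean were 0.78, 0.93 and 0.70 in IR virus and 0.26, 0.36 and -0.62 in Sham. Nppa and Bmp10, which the atria also make, were far lower in all 3 Sham hearts, and both rose with Sham replicate 3 left out, whereas the other called members, Pam and Kcnj3, did not pass without it. The other rise was Pam, which amidates peptides (916, 912 and 954 CPM against 717, 765 and 706 CPM, 0.35 ± 0.069, edgeR adjusted p = 0.0418). Kcnj3, an atrial potassium channel, fell. The list had 2 calls without IR virus replicate 1, 2 or 3 in turn and without Sham replicate 2; the part of atrial tissue in the result was not tested.

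Among ion channels, the calls were falls. Of 29 tested ion channel and connexin genes none rose and 3 fell (median 0.01). Kcnv2, a silent subunit that modifies voltage-gated potassium channels, was at 7.65, 9.12 and 5.98 CPM in IR virus and 21.5, 14.7 and 16.2 CPM in Sham (-1.21 ± 0.18, edgeR adjusted p = 0.0103). Kcnd2, a pore subunit of the transient outward potassium current, was at 27.3, 29.2 and 29.0 CPM against 41.3, 45.4 and 45.0 CPM, with both groups tight (-0.62 ± 0.082, edgeR adjusted p = 0.00671). Kcnj3 was at 99.2, 113 and 110 CPM against 137, 148 and 154 CPM (-0.45 ± 0.086, edgeR adjusted p = 0.0336). The gap junction gene Gja1 (-0.07 ± 0.17, adjusted p = 0.871) did not pass.

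Except for Cenpf, the falls given next are in none of the gene lists. The long noncoding RNA Gm36827, outside the naming rule and chosen after its values were seen, was at 16.9 ± 1.16 CPM in IR virus and 40.2 ± 4.17 CPM in Sham (SD, n = 3 each) and fell (-1.25 ± 0.10, edgeR adjusted p = 0.000732). Cngb3, a subunit of the cyclic nucleotide-gated channel, was at 4.37, 4.19 and 4.20 CPM in IR virus and 10.9, 8.79 and 7.53 CPM in Sham (-1.10 ± 0.16, edgeR adjusted p = 0.00862). Ces1d, a carboxylesterase with lipase activity, was at 55.1, 75.5 and 55.7 CPM against 144, 109 and 106 CPM (-0.95 ± 0.15, edgeR adjusted p = 0.0148). Aqp4, a water channel, fell by 0.90 ± 0.14, and Abca12, a lipid transporter, by 0.83 ± 0.13. Cep128 (-0.84 ± 0.12) and Ift81 (-0.75 ± 0.096) encode proteins of the centriole and of transport in cilia, and Ano10 (-0.66 ± 0.083) a membrane protein of the anoctamin family, and Glt28d2 (-0.83 ± 0.16) fell too. Ano10 was at 20.9, 19.4 and 20.6 CPM against 31.5, 31.6 and 32.9 CPM. The cell division gene Cenpf was at 34.3, 33.0 and 40.0 CPM against 65.3, 61.0 and 80.9 CPM (-0.95 ± 0.12, edgeR adjusted p = 0.00596) and was the only call of its list. Of 30 tested proliferation genes, 28 had a positive fold change (median 0.36), beside 49.9% of all genes tested, and none of them rose. Mean log2 levels over the list, relative to the Sham mean, overlapped, at 0.23, 0.52 and 0.29 in IR virus and -0.16, -0.22 and 0.38 in Sham.

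Of 40 fatty acid genes, 25 of the TCA cycle and 66 nuclear genes of the respiratory chain none was called, beside 1.35% of all genes tested. Of them, 30, 20 and 53 had a negative fold change (medians -0.15, -0.15 and -0.11), beside 7541 of all 15061 genes. All 3 IR virus hearts lay below all 3 Sham hearts for 19, 16 and 35 of them, beside 11.2% of all genes. They lay above for 3, 0 and 0, beside 10.4%. Ppargc1a, a coactivator of mitochondrial genes, was nearest to the threshold of these lists at 121, 121 and 135 CPM against 184, 150 and 194 CPM (-0.49 ± 0.10, edgeR adjusted p = 0.0511). All 13 protein genes of the mitochondrial genome had a negative fold change (median -0.24) and none passed, while the mitochondrial ribosomal RNA gene mt-Rnr1 fell (3069, 3573 and 4213 CPM against 6093, 4728 and 5724 CPM, -0.61 ± 0.12, edgeR adjusted p = 0.042). These move with the mitochondrial share of counts given above, and its part in them was not tested. Of 30 glycolysis genes 2 fell, Pfkfb1, which sets the level of an activator of glycolysis (11.2, 17.5 and 12.7 CPM against 25.5, 20.9 and 24.3 CPM, -0.77 ± 0.15, edgeR adjusted p = 0.0412), and Gapdh (-0.77 ± 0.14). Gapdh has near-identical copies in the mouse genome and stood at only 4.14 to 8.15 CPM, so its count is uncertain.

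Among immune cell genes, 3 of 30 tested macrophage and monocyte genes rose (10%, beside 1.35% called over all genes) and none fell (median 0.20): Lgals3, galectin-3 (4.99, 3.77 and 4.61 CPM in IR virus against 1.23, 0.853 and 1.65 CPM in Sham, 1.85 ± 0.23, edgeR adjusted p = 0.00596), Gpnmb, a glycoprotein of lipid-laden and scar macrophages (1.80 ± 0.26, edgeR adjusted p = 0.0103), and Spp1, which is in the fibroblast list as well. The general macrophage gene Adgre1 was at 13, 13.3 and 12.3 CPM against 13.6, 9.94 and 10.6 CPM (0.18 ± 0.13, adjusted p = 0.533). Sham replicate 1 was the highest Sham heart for this list, at 0.399 in mean log2 CPM above the Sham mean against 0.324 to 0.370 in the IR virus hearts. It was also highest in the summed neutrophil markers, at 3.14 CPM against 0.540 to 0.741 CPM in IR virus and 0.384 and 0.8 CPM in the other Sham hearts. The part of these cells in the results was not tested.

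No interferon-stimulated gene of 44 tested and no gene of antigen presentation of 24 tested passed (medians 0.12 and 0.32). Of them, 39 and 23 had a positive fold change, beside 49.9% of all genes tested. In mean log2 CPM relative to the Sham mean, the groups overlapped for both lists. Interferon-stimulated genes were at 0.19, 0.12 and 0.21 in IR virus and 0.13, -0.26 and 0.13 in Sham. Genes of antigen presentation were at 0.47, 0.35 and 0.26 against 0.27, -0.18 and -0.092. Nlrc5, an activator of MHC class I genes, had the smallest p of the second list, at 11.7, 9.37 and 9.85 CPM in IR virus against 6.53, 5.89 and 8.04 CPM in Sham (0.60 ± 0.15, edgeR adjusted p = 0.0859). Of 23 chemokines and cytokines 1 rose, the membrane-bound chemokine Cx3cl1 (9.17, 7.54 and 7.06 CPM against 4.26, 4.78 and 4.52 CPM, 0.81 ± 0.14, edgeR adjusted p = 0.0237). Of 19 complement genes 2 rose, among them the protease Masp1 (0.69 ± 0.12). Of 6 tested B and plasma cell genes the kinase Blk rose (1.07 ± 0.21, adjusted p = 0.0363). T cell and neutrophil lists had 3 and 7 tested genes and no call, and most of their genes fell under the low-count filter.

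Vessel genes gave no call among 28 of blood endothelium (median 0.07) and 2 rises among 13 of lymphatic endothelium, the growth factor receptor Flt4 (0.61 ± 0.10) and the guidance protein Sema3d (1.01 ± 0.20). Prox1, a marker of lymphatic endothelium, had a fold change of -0.06 and was not called. Its group means of 115 CPM in IR virus and 120 CPM in Sham were far above those of Flt4 (22.5 and 14.7 CPM). Which cells made it was not tested. Pdpn, also a lymphatic marker, was higher in every IR virus heart without being called (5.37 against 3.49 CPM as group means). Lyve1, another lymphatic marker that resident macrophages also make, was at 13.5, 15.6 and 15.8 CPM in IR virus and 38.2, 18.4 and 20.7 CPM in Sham, lower in every IR virus heart but not past the test (-0.79 ± 0.23, edgeR adjusted p = 0.141). Single rises stood in the mesothelium and epicardium list (Igfbp5, 0.53 ± 0.11) and the Schwann cell and neuron list (Uchl1), and the skeletal muscle list had 2 (Acta1 and Mybpc2, which the stress list holds too). Of 13 skeletal muscle genes that could not be tested, Myh1, Myh2 and Myh4 define that tissue. The ubiquitin ligase Asb15 fell (-0.40 ± 0.084, adjusted p = 0.0494). No call was made by edgeR among 28 immediate early, 21 clock, 27 unfolded protein, 16 heat shock, 21 p53, 16 adipocyte and 9 red blood cell genes, whose medians lay between -0.06 and 0.09.

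The 3 IR virus hearts differed in how far the matrix genes rose. IR virus replicate 2 was the lowest of the 3 for 117 of the 158 genes that rose (74.1%) and for 29.8% of all genes tested. It was lowest for 25 of 31 fibroblast genes, 27 of 33 collagen chains and 12 of 13 small leucine-rich proteoglycans. Mean log2 levels over the 33 collagen chains, relative to the Sham mean, were 0.91, 0.41 and 0.77 in IR virus replicates 1 to 3 and -0.036, 0.17 and -0.14 in Sham. The stress list was more even, at 0.84, 0.67 and 0.73 in IR virus and -0.12, 0.17 and -0.058 in Sham. Atrium markers had replicate 2 highest, at 0.78, 0.93 and 0.70, and Sham replicate 3 lowest, at -0.62 against 0.26 and 0.36 in the other Sham hearts.

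**Figure D4:**
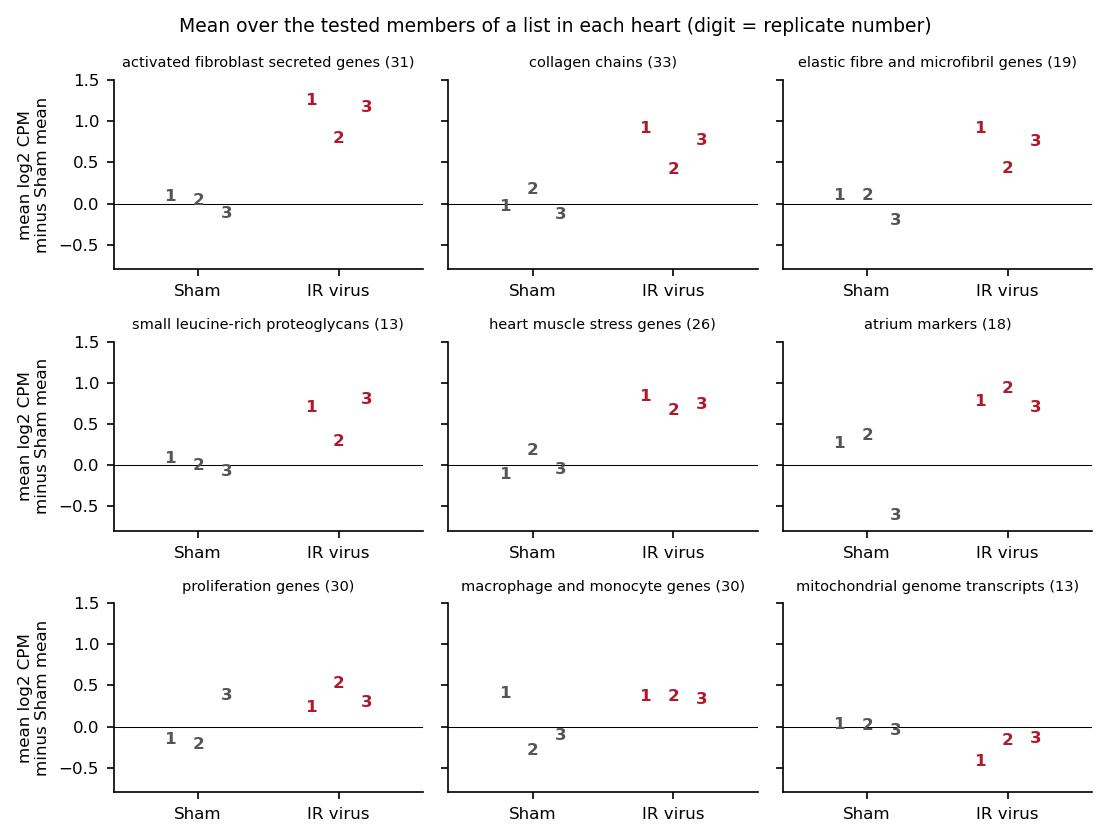
Mean log2 CPM over the tested members of 9 gene lists in each of the 6 hearts, relative to the mean of the Sham hearts (horizontal line at 0); digits are replicate numbers. IR virus replicate 2 is the lowest IR virus heart for the fibroblast, collagen, elastic fibre and proteoglycan lists, and Sham replicate 3 is the lowest heart for atrium markers (-0.62).

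IR hearts that had no virus give levels of the leading genes for comparison. Nppa was at 165, 131 and 73.4 CPM in IR replicates 1 to 3, Myh7 at 680, 643 and 315 CPM, and Bmp10 at 4.18, 2.95 and 0.128 CPM. Cilp was at 53.8, 55.8 and 28.9 CPM in IR, Postn at 201, 190 and 95.4 CPM, and Acta1 at 288, 298 and 274 CPM. IR replicate 3 was low for Nppa, Myh7, Bmp10, Cilp and Postn, and for Bmp10 it lay inside the Sham range, while its Acta1 level was close to the other IR hearts. The 3 IR levels of Kcnd2 (29.7, 29.8 and 29.5 CPM) lay just above the 3 IR virus levels.

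The difference between injured hearts with and without the virus was tested directly, IR virus against IR, a comparison that shares the IR virus hearts with the one above. Of 15065 genes tested with edgeR none passed (0% called; smallest adjusted p = 0.766), and 930 had an unadjusted p under 0.05 (6.17%). DESeq2's Wald test called 2, Gm14410 and Myh14. Of the 203 genes that differed from Sham, 200 were tested here, none passed, and 24 had an unadjusted p under 0.05. Myh14, a nonmuscle myosin heavy chain, had the smallest p, at 84.2, 81.9 and 72.1 CPM in IR virus and 59.8, 60.0 and 54.1 CPM in IR (0.46 ± 0.081), with Sham at 72.9, 57.8 and 49.2 CPM. The next higher ones were Gm14410 (1.46 ± 0.27), Itga3 (0.55 ± 0.12), Vwf (0.48 ± 0.12) and Rab11fip5 (0.33 ± 0.082). The lower ones with the smallest p were Gm12346 (-0.83 ± 0.21), Gm13341 (-1.52 ± 0.38), Gm29216 (-1.74 ± 0.45), Rnaset2a (-1.69 ± 0.44) and Ublcp1 (-0.33 ± 0.097). Rnaset2a, Gm13341 and Gm29216 each varied several-fold between hearts of 1 group, and Gm symbols can share reads with copies elsewhere. For Nppa the fold change of IR virus over IR was 0.27 ± 0.20, for Myh7 0.41, for Cilp 0.23 and for Postn -0.08. These p-values do not show that the groups are alike.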

How the data were processed

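Whole-heart mRNA libraries (RNeasy Micro and KAPA mRNA HyperPrep kits, per the labels' protocols) were sequenced. The values are raw counts of reads per symbol, as the authors deposited them. Per the submitters' processing notes, reads were handled with FastQC (0.11.8), Trimmomatic (0.39), HISAT2 (2.1.0) and, for counting, featureCounts (1.6.2) on mm10. Which annotation was counted, and whether by strand, was not given in the sources used here, so reads of overlapping, antisense and near-identical genes may be misassigned. Of 53278 symbols, 15061 passed filterByExpr over the 6 libraries. Positions came from GENCODE M21 for 98.1% of them.

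Counts were fitted in R 4.3.3 with edgeR 4.0.16 (TMM, quasi-likelihood test, 4 residual and 6.573 prior degrees of freedom, common biological coefficient of variation 0.1122), p adjusted by Benjamini-Hochberg over the 15061 genes. The script was tested on simulated counts. Levels are CPM scaled by TMM, with IR hearts brought to the same scale (the scales differed by at most 1.003 times), and the SE is the absolute log2 fold change over the square root of F. No pair of libraries of 1 group agreed within sampling noise (chi-square per degree of freedom 7.354 to 21.17). The labels do not say that numbers in the titles pair hearts. Deviations of same-numbered hearts correlated at 0.0622, -0.0914 and 0.261, and those of differently numbered hearts at -0.208 to 0.157. So few hearts cannot settle whether the numbers pair them.

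The comparison, the 45 gene lists (1173 symbols, 6 matched by synonym) and the naming rule were chosen with earlier results of these data known. The rule named the 12 largest rises and the 12 largest falls that passed, with a mean of at least 1 CPM and complete separation, passing over symbols that are no gene name (Gm, Rik and clone identifiers), up to 3 called members of each list (or the member with the smallest p), Camk2d, and 5 genes per direction for IR virus against IR. Other members named were chosen after their values were seen, and a few genes are not reported here. Motifs were searched in 32851 RefSeq promoter windows. Alternatives were DESeq2's size factors, its Wald test (1.42.0), other filters, a robust dispersion, a replicate block, a fit of all 13 libraries, leaving out mitochondrial counts and leaving out each library.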

Additional observations from a re-analysis of the deposited data

How the results depend on the processing

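The sign of all 203 differences from Sham was the same in every alternative in which the gene was tested. Complete separation of the hearts in all 203 left little room for any other outcome. DESeq2's size factors gave 200 genes, leaving out mitochondrial counts 202, and a filter of 1 CPM in 3 libraries 172. Without a filter on low counts 890 genes passed (541 higher, 349 lower), and with DESeq2's Wald test 436 (282 higher, 154 lower). A robust dispersion gave 245 genes, 70 of them lower. The replicate block, with the number in the title as a term, gave 241, 68 of them lower, but the labels do not say that the numbers pair the hearts. With the spread taken from all 13 libraries 2 passed, 1 higher and 1 lower. Of the genes that passed, 77.8% were higher, against 64.7% with the Wald test and 60.8% without a filter. Collagen chains had 17 calls with the Wald test and 21 without a filter, and elastic fibre genes 11 and 14. Leaving out 1 library at a time gave 18 to 254 genes, 17 to 199 higher and 1 to 55 lower. For IR virus against IR, the count was 87 without a filter, 2 with DESeq2's Wald test and 0 to 2 with a library left out. The cause of these shifts was not tested. With 3 hearts a group and 4 residual degrees of freedom, the number of hearts limits these comparisons, and for genes under 1 CPM the counts do too.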
